A study of Mus musculus with 4 samples.

Results

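Cell cycle and DNA replication genes were followed in regulatory T (Treg) cells of mouse visceral adipose tissue (VAT), the abdominal fat in which Foxp3-expressing T cells reside. The set holds 37 genes of 32285 gene rows, chosen by name from known function, though with earlier results of these data known. All 37 were found once in each count matrix. By role, 14 act in S phase, when DNA is copied, 20 act around mitosis, when chromosomes are separated, and 3 (Stmn1, Hmgb2 and Ccna2) act in both or more broadly. A small group of cells in each condition, chosen by the mitotic members they showed, held most of the mitotic members' transcripts (57.8% to 83.1%), as that choice favours. It held 23.8% to 60% of the S phase members' transcripts.

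The 4 conditions were measured in 2 pools by single-cell RNA sequencing in droplets, from the 5′ end of transcripts. A unique molecular identifier (UMI) tags every captured RNA molecule, and an antibody-bound hashtag tags the cells of a condition. The Srebf2 pool joined cells of 4 male Foxp3YFP-cre Srebf2WT/WT mice (WT) with cells of 4 Foxp3YFP-cre Srebf2flox/flox mice (KO), all aged 25 weeks. Cre is expressed from Foxp3 in both groups, so deletion concerns Foxp3-expressing cells. The diet pool joined cells of 5 male Foxp3thy1.1 PpargTdt mice on normal chow (NCD) with cells of 5 such mice fed a high-fat diet (HFD) over 22 weeks, all aged 23 to 27 weeks. Live CD3+ CD4+ Foxp3+ cells were sorted and the conditions of a pool were mixed in equal parts. Each condition is therefore 1 pool of mice and 1 sample. No difference below has a replicate check, no test across mice is possible, and every interval is a 95% interval that covers counting error only.

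After filtering, 3490 WT, 3956 KO, 4938 NCD and 4512 HFD cells remained, with totals of 14010241 to 22200627 UMIs per condition and medians of 3193.5 (HFD) to 3989 (NCD) UMIs per cell. Foxp3 was detected in 55.4%, 56.7%, 53.7% and 40.5% of these cells, in the order WT, KO, NCD and HFD, and Cd3e in 91.8% to 94.1%. The pools shared 87 kept cell barcodes. Srebf2, the deleted gene, stood at 65.7 counts per 1000000 UMIs (CPM) in WT against 3.95 in KO cells. The diet conditions differed in make-up: an Il1rl1 UMI, which marks the ST2 receptor of the resident adipose Treg cell, was found in 78.1% of NCD and 17.6% of HFD cells (71.0% of WT and 58.7% of KO). In summed counts, more cells with a transcript and more transcript per cell cannot be told apart, so cells were also counted one by one.

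A cell that divides passes from a gap phase into S phase, where the MCM helicase unwinds DNA, PCNA clamps the polymerase to it and a set of enzymes supplies deoxynucleotides. It then passes through another gap into mitosis, driven by the kinase CDK1 with cyclin B. As background, many S phase genes are switched on by E2F factors, whereas many mitotic genes are held down in resting cells and switched on late through a cell cycle homology region (CHR) that often lies beside CCAAT boxes. Resident adipose Treg cells are known for growing in number in young adult mice and for depending on interleukin-33, which binds ST2.

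The promoters of the members differed by role. RefSeq (GRCm38.p6) gave promoter windows, from 250 bases before to 50 after the start, for 32 of the 37 members. Words of the E2F kind (TTTCCCGC, TTTGGCGC, TTTCGCGC or TTTGCCGC, either strand) occurred in 6 of 16 S phase promoters (37.5%, from 13 genes, of which Lig1 and Mcm7 have several starts), in 1 of 18 mitotic promoters (5.56%, Cdk1) and in 2.26% of 32817 promoters in all. CHR words (TTTGAA or TTCGAA, either strand) occurred in 13 of 18 mitotic promoters (72.2%), in 2 of 16 S phase promoters (12.5%) and in 19.2% of all. CCAAT on either strand was in 16 of 18 mitotic (88.9%), 10 of 16 S phase (62.5%) and 37.4% of all promoters, and a CHR word together with CCAAT in 13 of 18 mitotic promoters (72.2%) against 7.51% of all. Matching letters describe these windows and are not shown to be sites in use, and no match says only that these letters are not in the window.

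The 4 stretches of 150 bases printed here, which end just before the start, and overlap no annotated gene, show which words single members hold. Capitals mark E2F words, CHR words and CCAAT, each on either strand, in all 4. Mcm6 holds 3 E2F words, of which 2 overlap, 0 CHR words and 2 CCAAT. Cdk1 holds 1 E2F word, as the one mitotic member with any, beside 2 CHR words and 2 CCAAT. All are printed 5′ to 3′ on the gene's strand in GRCm38.p6. Mcm6, a helicase subunit, reads chr1:128359706-128359855 (minus strand). Cdk1, the mitotic kinase, reads chr10:69352913-69353062 (minus). Cks1b, a small CDK-binding protein, reads chr3:89418292-89418441 (minus). Ube2c, the ubiquitin-conjugating enzyme of the anaphase-promoting complex, reads chr2:164769779-164769928 (plus).
Mcm6: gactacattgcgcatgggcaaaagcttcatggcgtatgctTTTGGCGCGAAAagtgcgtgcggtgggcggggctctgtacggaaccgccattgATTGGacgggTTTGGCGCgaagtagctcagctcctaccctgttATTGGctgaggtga
Cdk1: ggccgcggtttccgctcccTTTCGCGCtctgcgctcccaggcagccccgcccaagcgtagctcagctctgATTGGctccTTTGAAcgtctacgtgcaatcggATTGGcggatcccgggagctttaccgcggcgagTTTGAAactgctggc
Cks1b: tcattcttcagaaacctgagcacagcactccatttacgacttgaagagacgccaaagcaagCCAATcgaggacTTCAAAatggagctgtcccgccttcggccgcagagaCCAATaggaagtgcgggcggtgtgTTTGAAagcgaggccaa
Ube2c: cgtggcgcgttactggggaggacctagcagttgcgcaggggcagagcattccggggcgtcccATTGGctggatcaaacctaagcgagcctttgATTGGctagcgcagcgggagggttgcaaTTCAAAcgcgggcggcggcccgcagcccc

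In the diet pool the members were higher in HFD than in NCD across the whole set. A gene with a mean of 5 CPM or more over the 2 conditions counted as higher or lower when the larger level was at least 25% above the smaller one. This limit is one of size, with no test behind it. By it 36 of the 36 members that passed this minimum were higher in HFD and 0 lower, where 22.2% of all 9632 genes were higher and 15.1% lower. Bub1, the remaining member and a spindle checkpoint kinase, had 1.62 CPM in NCD against 5.99 in HFD. The summed S phase members had 441 CPM in NCD against 858 in HFD (log2 ratio 0.96, 0.92 to 0.99), and the summed mitotic members had 322 against 770 CPM (1.26, 1.22 to 1.30). The median log2 ratio was 0.87 over the S phase members, 1.30 over the 19 mitotic members that passed and 0.08 over all genes. In the Srebf2 pool the same sums lay close together, as described further down.

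**Figure D1:**
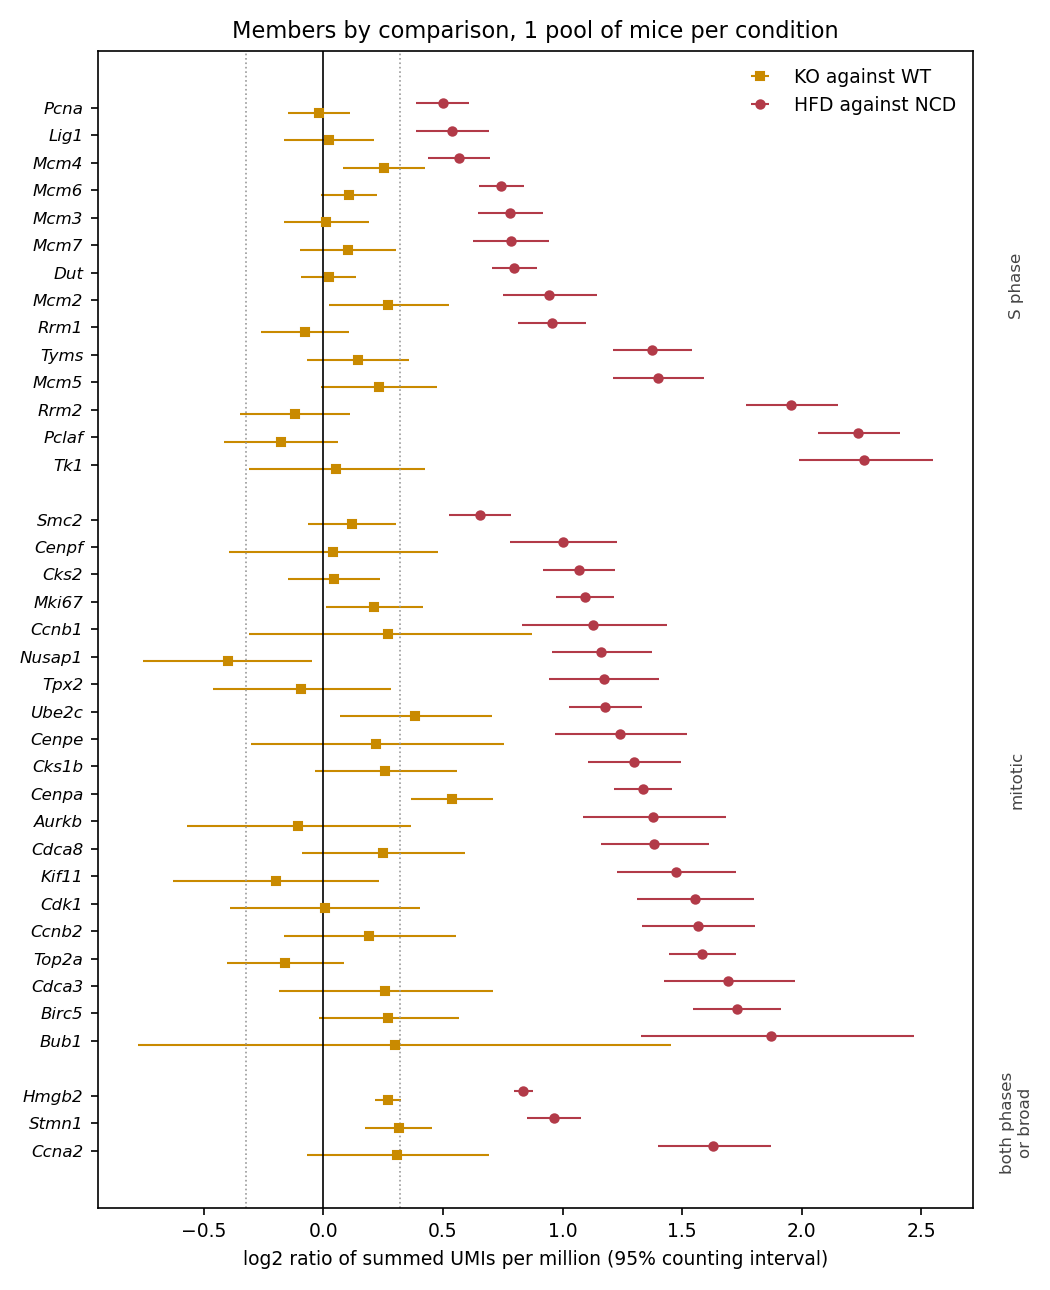
Log2 ratio of each member (x axis) with its 95% counting interval, KO against WT (squares) and HFD against NCD (circles), by role and ordered by the diet ratio. Dotted lines mark a 25% difference in level. All HFD against NCD values lie right of the dotted line, from 0.50 (Pcna) to 2.26 (Tk1), while the KO against WT values scatter from −0.40 (Nusap1) to 0.54 (Cenpa).

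Among the enzymes that supply and control deoxynucleotides, the diet difference ranged widely. Tk1, the thymidine kinase, stood at 8.14 (WT), 8.45 (KO), 5.99 (NCD) and 28.8 CPM (HFD) (HFD against NCD 2.26, 1.99 to 2.55). Rrm2, the S phase subunit of ribonucleotide reductase, stood at 21.3, 19.6, 13.1 and 51.0 CPM in the same order (1.96, 1.77 to 2.15). Its partner Rrm1, the large subunit, stood at 33.6, 31.9, 30.2 and 58.5 CPM (0.95, 0.81 to 1.10). HFD was the high condition for each of these, and NCD was the lowest. Tyms, the thymidylate synthase, stood at 23.3, 25.7, 19.6 and 50.7 CPM (1.38, 1.21 to 1.54). Dut, which removes dUTP, stood at 80.9, 82.2, 70.1 and 122 CPM (0.80, 0.70 to 0.89).

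The diet ratios of the replication machinery also spread widely. Pcna, the polymerase clamp, stood at 65.0 (WT), 64.2 (KO), 56.9 (NCD) and 80.3 CPM (HFD) (0.50, 0.39 to 0.61), the lowest ratio of the set. Pclaf, which encodes the PCNA-associated factor, stood at 20.5, 18.1, 15.7 and 74.2 CPM (2.24, 2.07 to 2.41). The clamp and its partner thus lay at opposite ends of the S phase members. Lig1, the ligase that seals Okazaki fragments, stood at 30.6, 31.1, 28.4 and 41.2 CPM (0.54, 0.39 to 0.69). Of the 6 subunits of the MCM helicase, Mcm5 had the largest ratio, at 17.3, 20.4, 15.2 and 40.1 CPM (1.40, 1.21 to 1.59), and Mcm4 the smallest, at 34.9, 41.6, 39.5 and 58.4 CPM (0.57, 0.44 to 0.70). Mcm2, Mcm3, Mcm6 and Mcm7 lay between at 0.74 to 0.94.

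The mitotic members lay within a narrower band, with each one except Smc2 at 1.00 or above. Mki67, which encodes the Ki-67 antigen that coats mitotic chromosomes, stood at 25.1 (WT), 29.0 (KO), 38.2 (NCD) and 81.6 CPM (HFD) (1.09, 0.97 to 1.22). Top2a, the topoisomerase that untangles sister chromatids, stood at 19.4, 17.4, 26.5 and 79.4 CPM (1.58, 1.44 to 1.72). Birc5, the survivin subunit of the chromosomal passenger complex, stood at 12.0, 14.5, 14.9 and 49.3 CPM (1.73, 1.55 to 1.92). For each, HFD exceeded every other condition beyond the counting intervals, though against WT and KO, of the other pool, condition and pool cannot be told apart. The other passenger members Aurkb, the kinase of that complex, and Cdca8, borealin, were both at 1.38.

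Genes of the CDK1 kinase and its partners also stood highest in HFD. Cdk1 stood at 7.21 (WT), 7.24 (KO), 8.83 (NCD) and 25.9 CPM (HFD) (1.55, 1.31 to 1.80). Its cyclin partners Ccnb1 and Ccnb2 had ratios of 1.13 (0.83 to 1.44) and 1.57 (1.33 to 1.81), and Ccna2, cyclin A, of 1.63 (1.40 to 1.87). Cks1b and Cks2, small proteins that bind CDKs, were at 1.30 and 1.07. Ube2c stood at 9.78, 12.8, 23.9 and 54.1 CPM (1.18, 1.03 to 1.33), so that its NCD level already exceeded WT and KO of the other pool. Cdca3, which triggers degradation of a mitotic inhibitor, was at 1.69 (1.42 to 1.97).

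Among centromere and spindle genes, Cenpa, the histone H3 variant of centromeres, stood at 31.4 (WT), 45.5 (KO), 37.8 (NCD) and 95.6 CPM (HFD) (1.34, 1.22 to 1.46). Cenpf and Cenpe, which act at kinetochores, were at 1.00 and 1.24. The spindle proteins Kif11, Tpx2 and Nusap1 were at 1.47, 1.17 and 1.16. Smc2, the condensin subunit, stood at 30.8, 33.5, 38.6 and 60.8 CPM (0.66, 0.53 to 0.79), the lowest of the mitotic members. Of the members of broad use, Hmgb2, a chromatin protein, stood at 334, 403, 394 and 703 CPM (0.84, 0.80 to 0.88), and Stmn1, a microtubule-destabilizing protein, at 49.7, 61.8, 47.7 and 93.0 CPM (0.96, 0.85 to 1.08).

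Genes of the same phases outside the set showed the same direction in HFD. Of 35 other S phase genes 30 passed the level minimum, 24 were higher and 0 lower (median 0.82), led by Rad51ap1 (1.90) and Clspn, the replication checkpoint adaptor (1.87). Of 38 other mitotic genes 26 passed, 23 were higher and 0 lower (median 1.13), with the kinesin Kif15 at 1.98 and the condensin Smc4 at 155 CPM in NCD against 426 in HFD (1.46). Of 14 broadly used genes that dividing cells raise, 10 were higher and 0 lower (median 0.41), with the histone variants H2afx at 1.11 and H2afz at 0.95 and Ptma at 0.09.

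Regulators of entry into the cycle went both ways. Of 13 such genes 10 passed, 5 were higher and 2 lower in HFD (median 0.23), beside the 22.2% of all genes that were higher and the 15.1% that were lower. Cyclin D2 (Ccnd2) had 364 CPM in NCD against 189 in HFD (−0.94), and Myc had 153 against 91.5 CPM (−0.74), while cyclin D3 (Ccnd3) had 204 against 301.1 CPM (0.56) and E2f3 had 8.56 against 15.8 CPM (0.88). Of 17 inhibitors and quiescence genes 16 passed, 3 were higher and 4 lower (median 0.03), not far from the same shares of all genes. Cdkn1a, which encodes the CDK inhibitor p21, had 179 CPM in NCD against 56.7 in HFD (−1.66), and the antiproliferative gene Btg2 had 1099 against 481 CPM (−1.19). Foxo1 (68.3 against 130 CPM, 0.92) and Btg1 (819 against 1195 CPM, 0.54) were among the higher ones.

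In the Srebf2 pool the members differed little. By the same rule 34 members passed, 2 were higher in KO and 1 lower, where 4.82% of all 9661 genes were higher and 4.4% lower. Cenpa (log2 ratio 0.54, 0.36 to 0.71) and Ube2c (0.38, 0.07 to 0.71) were the higher members, and Nusap1, at 10.3 CPM in WT against 7.78 in KO (−0.40, −0.76 to −0.05), was the lower one. The summed S phase members had 490 CPM in WT against 509 in KO (0.05, 0.01 to 0.10) and the summed mitotic members had 243 against 272 CPM (0.16, 0.10 to 0.23). Hmgb2 was at 0.27 (0.22 to 0.33) and Stmn1 at 0.31 (0.17 to 0.46), both short of that limit. Without the 1% of cells with most UMIs in each condition, 10 of 24 members that passed were higher in KO and 0 lower, and the mitotic sum was at 0.44 (0.36 to 0.53). This cut was uneven, as it took out 24 of the 38 WT but 22 of the 59 KO cells with 4 or more mitotic members. With only cells whose own hashtag held 97% or more of the hashtag counts, the mitotic sum was at −0.04 (−0.11 to 0.03) and 6 members were lower in KO. The mitotic sum in this pool thus depended on which cells were kept. No share over all genes was taken for these 2 choices of cells, so their member counts have no background beside them. Among Il1rl1-positive cells, 4 of 32 members that passed were higher in KO and 5 lower (4.74% and 5.82% of all genes). Among cells with no Il1rl1 UMI, 9 of 34 were higher and 1 lower (9.95% and 9.26%), and among cells rich in members of neither phase, a class defined further down, Mki67 (0.43) and Cenpa (0.49) were the 2 higher of 18 and 0 were lower (5.39% and 4.88%).

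Outside the set, 1 of 26 other S phase genes that passed was higher in KO (Cdt1, the replication licensing factor, 0.33) and 2 of 14 other mitotic genes were lower (Dlgap5, −0.45, and Tacc3, −0.36). Of the entry genes E2f2 was higher (0.48), and 0 of 16 inhibitors and quiescence genes passed the limit in either direction, with Foxo1 at 0.24.

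Counting the members detected in each cell separated a small group from the rest. Of the 20 mitotic members, 2450 WT, 2609 KO, 3344 NCD and 2791 HFD cells had none, and most others had 1 to 3. Few cells lay near 8 (1 to 4 cells per condition at exactly 8), and a second group lay at the top: all 20 were detected in 3 WT, 4 KO, 10 NCD and 32 HFD cells. Cells with 4 or more mitotic members are called mitotic-rich below. This is a range of a count and not a cell type, and cells with 4 to 7 lie near its edge (11 (WT), 29 (KO), 21 (NCD) and 46 (HFD)).

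**Figure D2:**
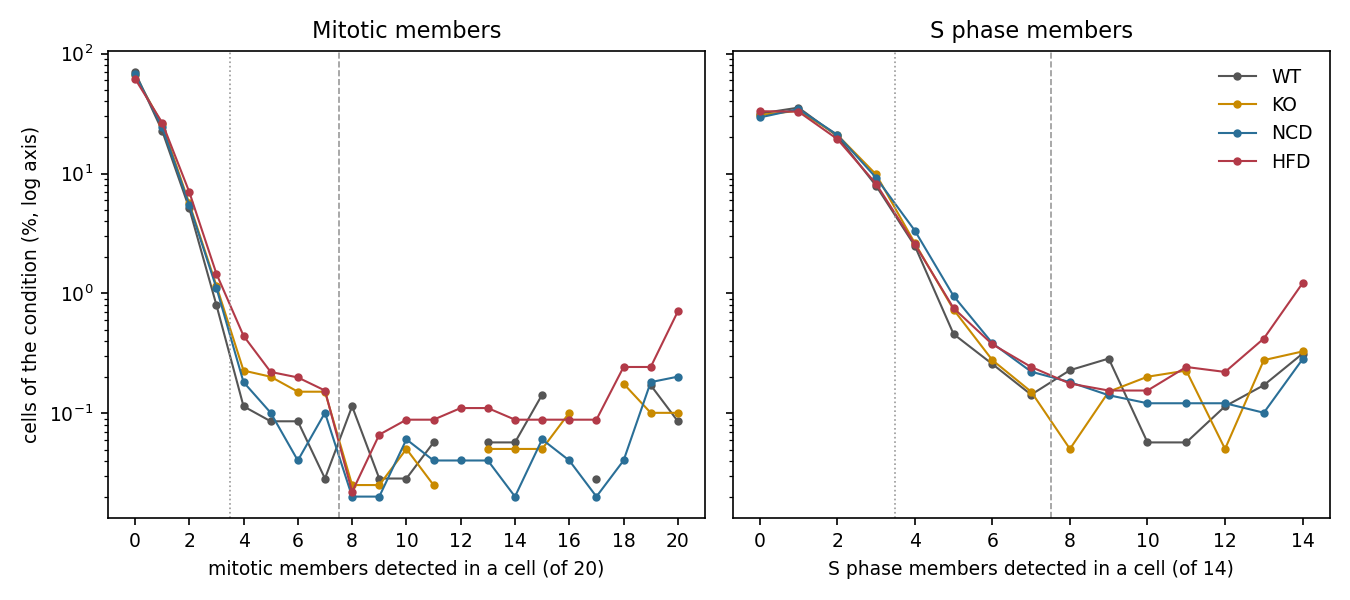
Share of cells (y axis, log scale, %) by the number of mitotic members (left) or S phase members (right) detected in a cell, for each condition. Numbers with no cell are not drawn, and lines mark the limits of 4 (dotted) and 8 (dashed). For mitotic members HFD lies highest from 1 to 7 members and again at the top, and for both panels it is highest at the last point, with 32 cells holding all 20 mitotic members and 55 holding all 14 S phase members.

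Mitotic-rich cells made up 38 of 3490 WT cells (1.09%, exact Clopper-Pearson interval 0.77 to 1.49), 59 of 3956 KO cells (1.49%, 1.14 to 1.92), 60 of 4938 NCD cells (1.22%, 0.93 to 1.56) and 138 of 4512 HFD cells (3.06%, 2.58 to 3.60). The share was 2.52-fold higher in HFD than in NCD (1.85 to 3.47) and 1.37-fold higher in KO than in WT (0.90 to 2.12). HFD stood apart from the other 3 conditions, whose intervals overlap, though WT and KO are of the other pool. With a limit of 8 members, added after the distribution was seen, the shares were 0.77%, 0.76%, 0.79% and 2.04%, at 2.58-fold between the diets (1.76 to 3.86) and 0.98-fold between the genotypes (0.56 to 1.71). After every cell was thinned to 2000 UMIs, which left out 307 WT, 311 KO, 286 NCD and 711 HFD cells, the shares at 4 members were 0.53%, 0.63%, 0.73% and 2.00% (HFD against NCD 2.74-fold, 1.80 to 4.23).

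For S phase members the limit mattered. With 4 or more of 14, 160 WT (4.58%), 201 KO (5.08%), 295 NCD (5.97%) and 295 HFD cells (6.54%) were counted, and HFD and NCD differed by 1.09-fold (0.93 to 1.29). With 8 or more, there were 43 WT, 51 KO, 53 NCD (1.07%) and 117 HFD cells (2.59%), at 2.42-fold (1.73 to 3.41). In thinned cells the shares at 4 or more were 1.05% of NCD and 2.66% of HFD (2.52-fold, 1.78 to 3.63). The interval of the ratio thus lay above 1 at the limit of 8 and held 1 at the limit of 4 in whole cells, where the median depth per cell was greater in NCD.

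The upper group was mixed in phase. Among cells with 8 or more members of at least one phase, 28 of 64 in NCD (43.8%, 31.4 to 56.7) and 85 of 124 in HFD (68.5%, 59.6 to 76.6) reached 8 in both. Those with 8 S phase members only numbered 25 in NCD and 32 in HFD, and those with 8 mitotic members only 11 and 7. In the Srebf2 pool 22 of 48 WT and 22 of 59 KO cells reached both. Depth moved with this count: the median was 16156.5 UMIs in NCD and 21360 in HFD cells that reached 8 in both, and its part in the difference was not tested.

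Mitotic-rich cells held more UMIs than others. Choosing cells by 4 or more detected members favours deep cells, and the part of that choice in their depth was not tested. In the order WT, KO, NCD and HFD, the medians of mitotic-rich cells were 14665.5, 13180, 13819 and 15906 UMIs, against 3511, 3577, 3895 and 3086 in cells rich in members of neither phase. Mitotic-rich cells therefore weighed heavily in sums, with 3.98% of all UMIs in NCD and 13.8% in HFD. They held 68.3% of the mitotic members' UMIs in NCD and 83.1% in HFD (57.8% in both WT and KO), and 23.8% and 60.0% of the S phase members' UMIs. The share of cells with thinned counts, given above, is free of this weight. Doublets of cells of one condition cannot be seen by hashtags. The own hashtag held a median of 98.1% to 99.6% of hashtag counts in mitotic-rich cells, and the part of doublets in their depth was not tested.

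How far a member was confined to such cells differed between members. In each case the share of its UMIs was taken in cells with 4 or more other mitotic members. In the order WT, KO, NCD and HFD, Pclaf had 96.2%, 97.3%, 94.3% and 99.1% of its UMIs there. Birc5 had 95.2% to 98.9%, Bub1 97.2% to 100%, Cenpf 90.9% to 98.5%, Aurkb 90.5% to 98.3% and Ccna2 92.2% to 97.9%. Pcna lay at the other end, at 19.1%, 18.8%, 13.1% and 43.2%. The cells counted for Pcna held 4.26%, 5.12%, 3.98% and 13.8% of all UMIs, likewise lowest in NCD and highest in HFD. Mcm4 had 13.9% to 38.7%, Mcm6 15.4% to 41.3% and Dut 16.4% to 52.3%. Of the mitotic members, Cenpa (27.0% to 47.5%), Cks2 and Smc2 were also spread over many cells, and Hmgb2 was found in 53.5% to 64.8% of all cells. Mki67, often used as a marker of cycling cells, lay between, at 57.0% to 88.8%.

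**Figure D3:**
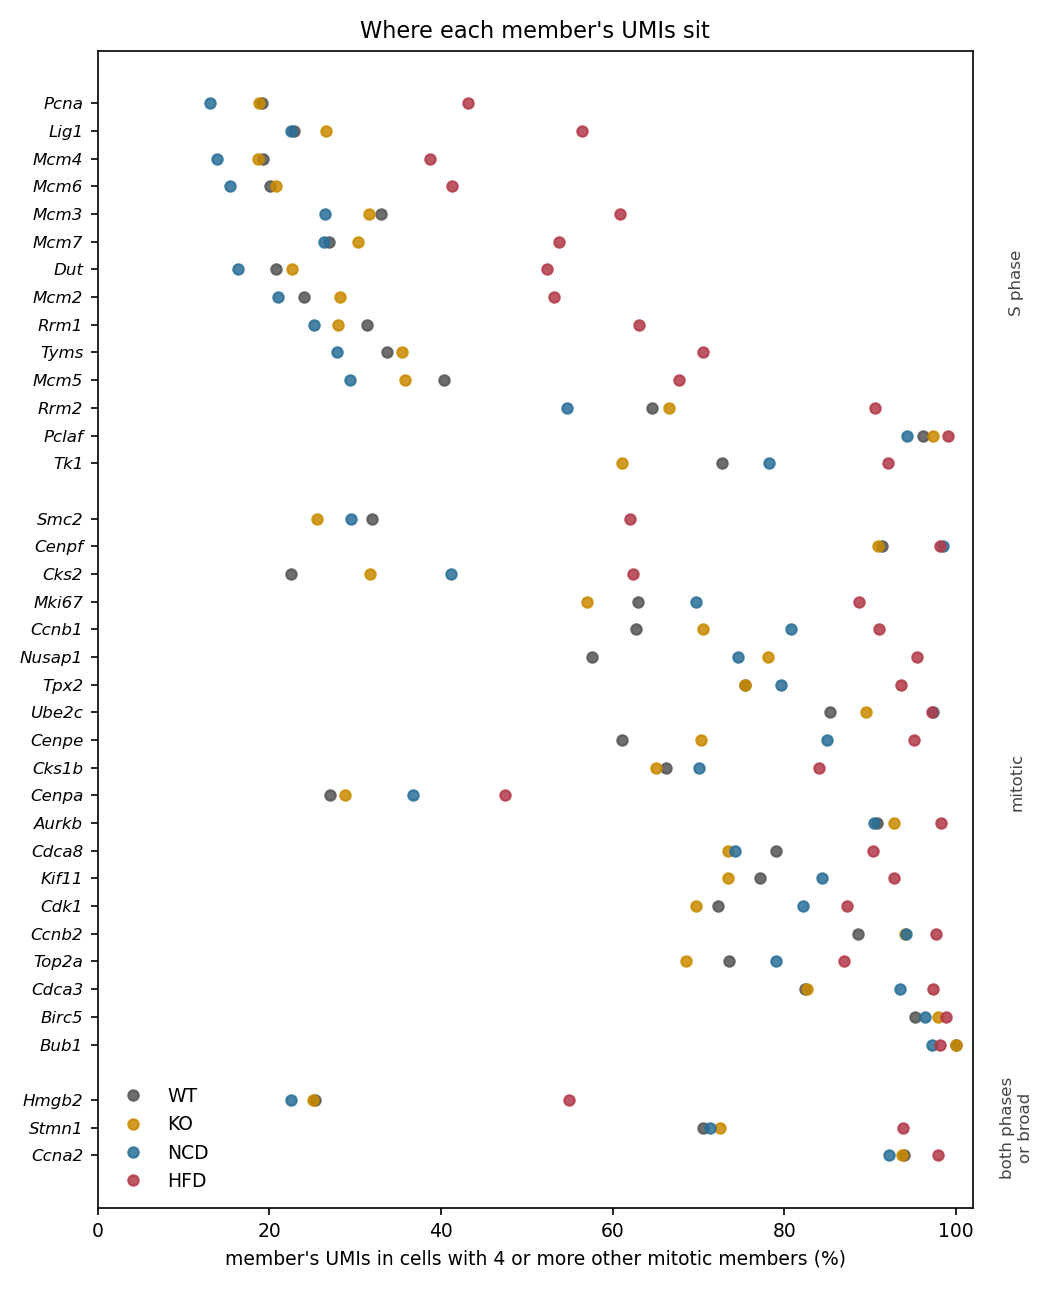
Share of each member's UMIs (x axis, %) found in cells with 4 or more other mitotic members, by condition (1 point each), in the order of the plot of ratios. Pclaf, Birc5, Bub1, Cenpf, Aurkb and Ccna2 lie above 90% in all 4 conditions, whereas Pcna lies at 13.1% in NCD and 43.2% in HFD. The cells counted for Pcna held 3.98% of all UMIs in NCD and 13.8% in HFD.

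This spread ran with the size of the diet ratio among the S phase members, as a description of values that share libraries and cells. Pclaf, Tk1 and Rrm2, with the largest ratios, had 54.6% to 94.3% of their NCD UMIs in cells with other mitotic members, and Pcna, Lig1 and Mcm4, with the smallest, 13.1% to 22.5%. Among cells rich in neither phase, 18 members passed the level minimum, 6 were higher in HFD and 1 lower, where 22.4% of all genes were higher and 15.3% lower. There the S phase sum was at 0.18 (0.12 to 0.23). Cenpa had 25.2 CPM in NCD against 58.0 in HFD (1.20, 1.04 to 1.37) and Top2a was at 1.00 (0.64 to 1.37), and these values, like those of all members here, describe cells chosen for few detected members. Stmn1 went the other way there (−1.07, −1.45 to −0.71).

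Inside mitotic-rich cells the sums of the 2 roles went in opposite directions. These cells were chosen by mitotic members, whose values in them are a description, whereas S phase members were not used. In HFD mitotic-rich cells 10 of 14 S phase members were higher than in NCD and 0 lower, where 21.8% of all genes were higher and 29.4% lower. The S phase sum was 2639 CPM in NCD against 3722 in HFD (0.50, 0.43 to 0.56), led by Tyms (0.91), Rrm2 (0.89) and Mcm5 (0.80), while Mcm7 was at 0.01 and Lig1 at 0.06. The mitotic sum was 5534 CPM in NCD and 4626 in HFD (−0.26, −0.31 to −0.21). Of the 20 mitotic members 6 were lower, close to the 29.4% of all genes that were lower, and 0 were higher. The 6 were Cenpf (−0.80), Ube2c (−0.62), Ccnb1 (−0.51), Tpx2 (−0.40), Cenpe (−0.39) and Mki67 (−0.37). Outside the set, 13 of 35 other S phase genes were higher and 1 lower (sum 0.24), and 20 of 38 other mitotic genes were lower and 1 higher (sum −0.27).

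**Figure D4:**
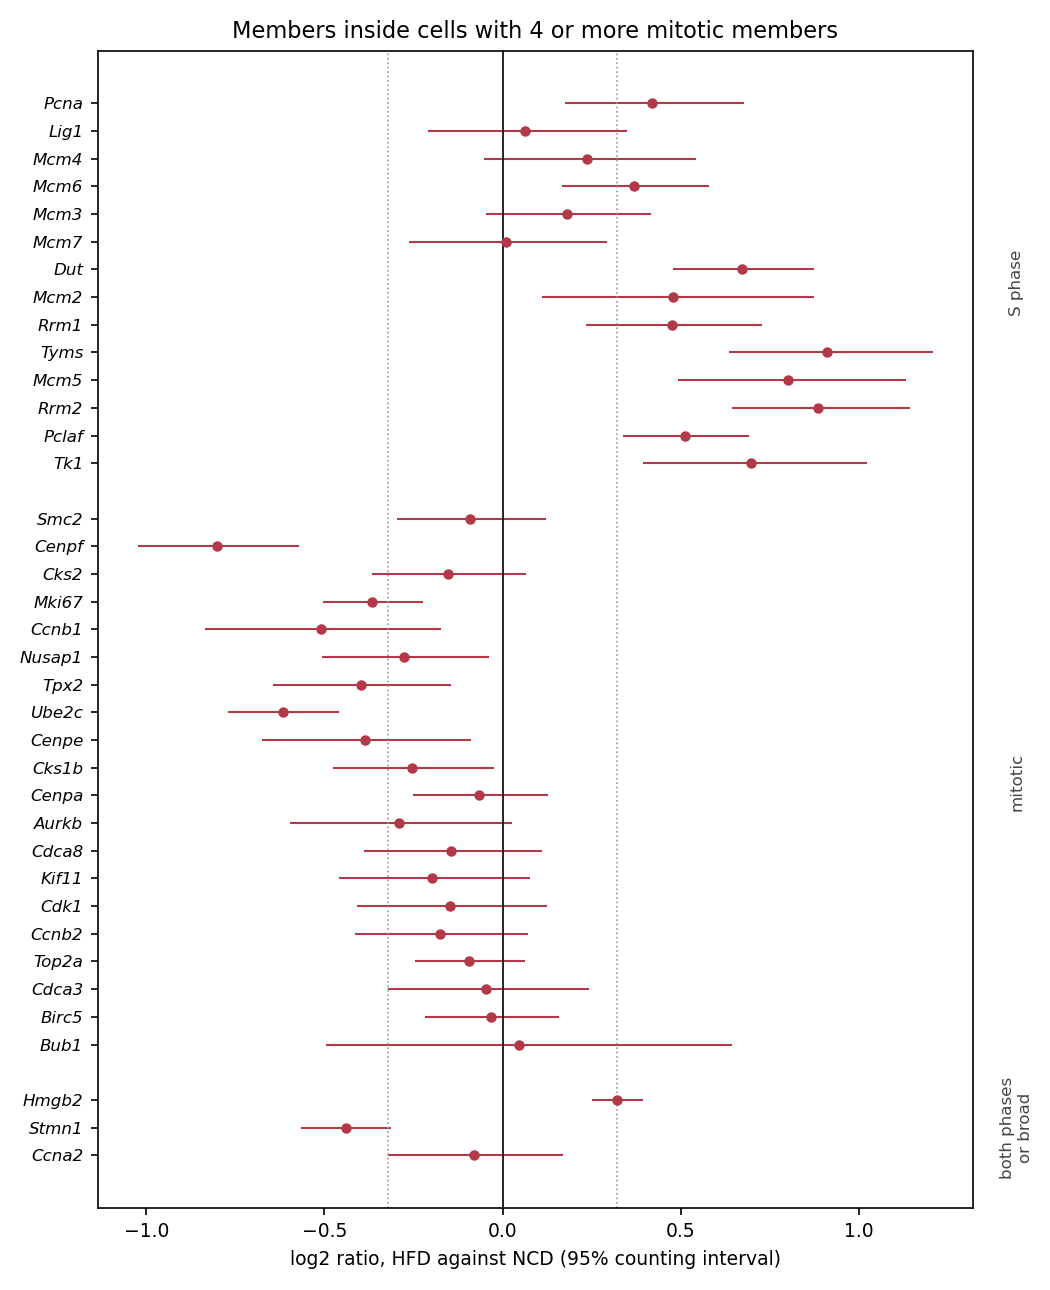
Log2 ratio of each member, HFD against NCD (x axis), over the UMIs of mitotic-rich cells only (138 HFD and 60 NCD cells), with 95% counting intervals and dotted lines at a 25% difference. S phase members lie at 0.01 or above, up to 0.91 (Tyms), and mitotic members lie below 0 apart from Bub1 at 0.05, down to −0.80 (Cenpf).

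In the Srebf2 pool, mitotic-rich cells of KO had an S phase sum at −0.22 (−0.31 to −0.13) and a mitotic sum at −0.11 (−0.19 to −0.02) against those of WT. By the rule of size 1 member was higher and 10 lower of 37, where 23.8% of all genes were higher and 24.7% lower among these 59 and 38 cells.

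Treg and tissue markers were set beside the mitotic-rich cells. All 6 Treg markers were detected in them in each condition, with summed levels of 2438 to 2776 CPM against 3229 to 3802 CPM in cells rich in neither phase. Foxp3 was detected in 27 of the 38 WT mitotic-rich cells, 41 of the 59 KO, 44 of the 60 NCD and 96 of the 138 HFD ones. Its levels there, in the same order, were 127, 126, 118 and 90.8 CPM, against 263, 273, 218 and 174 CPM in cells rich in neither. Il7r, the interleukin-7 receptor, was at 235, 305, 367 and 189 CPM in mitotic-rich cells against 1002, 1084, 1070 and 863 CPM. Il1rl1 was at 377, 352, 612 and 53.4 CPM against 714, 580, 815 and 147 CPM. As shares of UMIs, all 3 lay lower in mitotic-rich cells in every condition. These cells held more UMIs each, so the levels per cell need not be lower. Over all kept cells Foxp3 was detected in 55.4% (WT), 56.7% (KO), 53.7% (NCD) and 40.5% (HFD), and a deeper cell is more likely to show it.

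Markers of other cells were set against cells rich in neither phase, in the order WT, KO, NCD and HFD. Macrophage markers summed to 0, 2.38, 1.13 and 3.12 CPM in mitotic-rich cells against 4.95, 4.57, 3.76 and 4.72 CPM, with 0 to 2 of 6 detected in mitotic-rich cells. Csf1r, Cd14 and C1qa were at 0 there in all 4 conditions, while Lyz2, like Cd79a and Cd8a, was at 0 in all kept cells by the filter. B cell markers summed to 97.2, 154, 31.7 and 256 CPM against 90.9, 132, 129 and 268 CPM, with 2 or 3 of 6 detected, so they were lower in mitotic-rich cells of NCD and about level in the others. CD8 T and NK cell markers summed to 109, 10.7, 14.7 and 21.4 CPM against 18.9, 21.03, 30.5 and 20.9 CPM, with 1 or 2 of 5 detected, Ncr1 and Klrb1c at 0, and WT as the condition in which they stood higher. Red cell markers summed to 5.03, 1.19, 1.13 and 458 CPM against 516, 93.5, 99.4 and 287 CPM. In HFD the globin Hbb-bs was found in 3 of the 138 mitotic-rich cells, and among HFD cells with 8 or more mitotic members the red cell sum was 1.01 CPM. The filter on Cd79a, Lyz2 and Cd8a removed 19 NCD and 9 HFD mitotic-rich cells, 2 in WT and 3 in KO. Without it the shares were 1.43% of NCD and 3.06% of HFD cells. The part of other cells in the diet difference was not tested. Resting markers such as Ccr7 and Tcf7 were at 42.9 and 159 CPM in HFD mitotic-rich cells and at 137 and 277 CPM in HFD cells rich in neither.

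Cells with and without an Il1rl1 UMI were compared because the diet conditions differ in their share. In summed counts of whole cells both kinds carried more of the members in HFD. In Il1rl1-positive cells 36 of 36 members that passed were higher in HFD and 0 lower (22.4% and 13.8% of all genes), with the mitotic sum at 1.23 (1.16 to 1.29) and the S phase sum at 0.77 (0.70 to 0.83). In cells without an Il1rl1 UMI 36 of 36 were again higher and 0 lower (13.6% and 17.9% of all genes), with sums at 1.82 (1.72 to 1.93) and 1.12 (1.05 to 1.20). Cdk1 was at 1.15 in the positive and 3.12 in the zero cells, Pclaf at 1.82 and 3.15, and Pcna at 0.37 and 0.61.

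The shares of mitotic-rich cells depended on depth. Between the diets they differed by 2.56-fold (1.58 to 4.09) in Il1rl1-positive and 6.35-fold (2.64 to 19.9) in zero cells, and in thinned cells by 1.78-fold (0.64 to 4.28), an interval that holds 1, and 2.93-fold (1.54 to 6.14). In NCD 55 of 3855 Il1rl1-positive cells (1.43%, 1.08 to 1.85) and 5 of 1083 zero cells (0.46%, 0.15 to 1.07) were mitotic-rich, and in HFD 29 of 793 (3.66%, 2.46 to 5.21) and 109 of 3719 (2.93%, 2.41 to 3.52). In WT the counts were 30 of 2479 (1.21%) and 8 of 1011 (0.79%), and in KO 39 of 2322 (1.68%) and 20 of 1634 (1.22%). Mitotic-rich cells with an Il1rl1 UMI thus outnumbered those without in whole cells of WT, KO and NCD but not of HFD, as did all cells of these conditions. Depth differs between the kinds, at medians of 3772 to 4221 UMIs in positive and 3046 to 3166 in zero cells, and a deeper cell is more likely to show an Il1rl1 UMI. In cells thinned to 2000 UMIs before both counts, an Il1rl1 UMI was left in 7 of 17 mitotic-rich cells in WT, 3 of 23 in KO, 23 of 34 from NCD and 7 of 76 from HFD, so the majority turned in WT and KO. The shares there were 0.74% and 0.72% in NCD (1.02-fold, 0.48 to 2.31), 1.31% and 2.11% in HFD (0.62-fold, 0.24 to 1.34), 0.38% and 0.76% in WT, and 0.17% and 1.07% in KO (0.16-fold, 0.03 to 0.54).

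**Figure D5:**
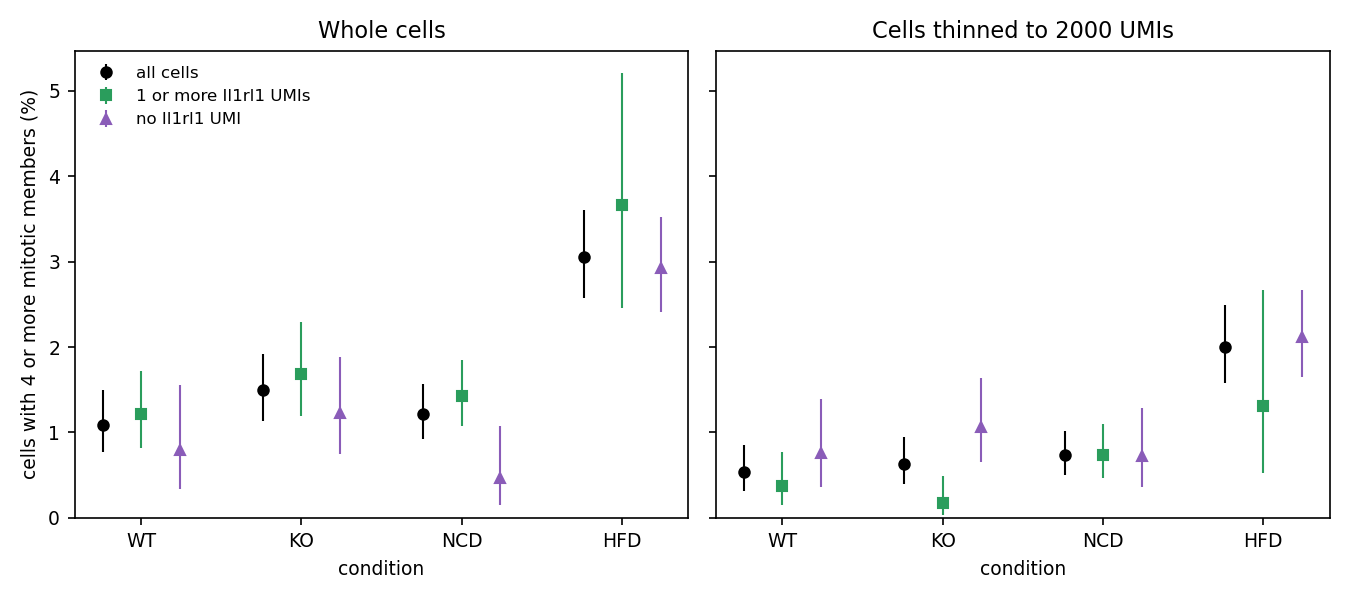
Share of cells with 4 or more mitotic members (y axis, %) by condition, for all cells, cells with 1 or more Il1rl1 UMIs and cells with none, in whole cells (left) and in cells thinned to 2000 UMIs (right). Bars are exact 95% binomial intervals. HFD lies highest in both panels for all cells, at 3.06% and 2.00%. The gap between Il1rl1-positive and zero cells in NCD (1.43% and 0.46%) nearly closes after thinning (0.74% and 0.72%). In WT, KO and HFD the positive cells lie above the zero cells in whole cells and below them after thinning.

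Summed over UMIs, Il1rl1-positive against zero cells differed by role and condition. In NCD 22 of 34 members that passed were higher in positive cells and 0 lower (10.9% of all genes higher, 24.9% lower), with the mitotic sum at 0.67 (0.56 to 0.78) and the S phase sum at 0.15 (0.07 to 0.23). In KO 17 of 34 were lower and 2 higher (22.0% and 10.0% of all genes), with the mitotic sum at −0.44 (−0.53 to −0.36) and the S phase sum at −0.03 (−0.09 to 0.04). In WT 7 were lower and 2 higher of 34 (19.1% and 11.8%), and in HFD 7 were lower and 1 higher of 37 (14.3% and 14%). In NCD the zero cells held 5 mitotic-rich cells in all, and the NCD mitotic sum was at 0.03 (−0.13 to 0.18) in thinned cells.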

How the data were processed

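The authors deposited raw UMI counts, 1 table per pool, in which hashtags are rows like genes (per the file headers). The matrix headers name Cell Ranger 7.1.0 (Srebf2 pool) and 7.0.1 (diet pool), and the submitters' processing notes name 7.0.1 and the build mm10. Each condition is 1 pool of mice. Of 9036 and 11456 barcodes, 7446 and 9450 were kept, with 500 or more genes, a mitochondrial share under 10%, 90% or more of hashtag counts from 1 hashtag, and no Cd79a, Lyz2 or Cd8a UMI. Droplets with mixed hashtags, which include doublets across conditions, were thus removed, and no doublet caller was run.

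Counts were summed per condition and divided by the total (CPM), with exact Poisson intervals. Log2 ratios (0.5 counts added) carry exact binomial intervals. The tools were Python 3.11.15, numpy 2.4.6, scipy 1.17.1, pandas 2.3.3 and, for TMM and RLE scaling, edgeR 4.0.16. The ratios, their intervals and the rule of size were tested on simulated sums per condition, drawn with counting error only. Thinning drew 2000 UMIs per cell. Members and lists were chosen with earlier results of these data known. Of each other list, the text names the 2 genes highest in level or the 2 farthest from equal in a comparison, and marker genes of interest were named after their values were seen. The red cell markers summed, in the order WT, KO, NCD and HFD, to 461, 82.4, 87.4 and 290 CPM, type 1 markers to 477, 1045, 632 and 756, resting markers to 217, 323, 217 and 977, conventional CD4 T cell markers to 1233, 1383, 1328 and 1031, and ST2 adipose Treg markers to 5050, 4493, 5961 and 1159 CPM.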

Additional observations from a re-analysis of the deposited data

Results flagged for a closer look

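The difference between cells with and without an Il1rl1 UMI took opposite directions in different conditions. The summed mitotic members were higher in Il1rl1-positive cells of NCD (log2 ratio 0.67) and, by less, of HFD (0.076), and lower in those of WT (−0.17) and KO (−0.44). The summed S phase members were higher in Il1rl1-positive cells of NCD (0.15) and lower in those of WT (−0.18) and HFD (−0.21). With 1 pool of mice per condition the difference between conditions was not tested. The opposite directions did not hold in cells of 2000 to 6000 UMIs. There the mitotic sum was negative in all 4 conditions (−0.32, −0.26, −0.23 and −0.11 in the order WT, KO, NCD and HFD). The S phase sum was too (−0.24, −0.22, −0.15 and −0.087), with intervals that held 0 in HFD for both. This range lies below the median depth of mitotic-rich cells (13180 to 15906 UMIs by condition). It leaves out most of them, so it cannot show whether the directions hold for those cells at equal depth.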

How the results depend on the processing

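No paired analysis was possible because each condition is 1 sample and the labels number no replicates, and there was no replicate to leave out. Of the changes in processing tried, 435 values of single members and medians stayed within the margin set for them, 117 moved beyond it and 15 were counted as reversed. Of the sums, counts and shares 197 stayed, 98 moved and 1 was counted as reversed. The count of reversed values does not hold every change of sign. Several sums with smaller log2 ratios also changed sign, in KO against WT and in Il1rl1-positive against zero cells of NCD and HFD, as given below. The signs of such small sums were therefore not stable.

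For HFD against NCD the S phase and mitotic sums were 0.90 and 1.14 with an own hashtag share of 97% or more, 0.86 and 1.16 with TMM factors, 0.84 and 1.14 with RLE factors, which shifted the median of all genes by −0.12, 1.03 and 1.33 with totals that leave out mitochondrial, ribosomal and receptor genes, 0.68 and 1.34 without cells above the 99th percentile of UMIs, and 0.46 and 0.83 in cells thinned to 2000 UMIs. The mitotic sum was 1.21 without the filter on Cd79a, Lyz2 and Cd8a and 1.30 in cells of 1000 or more genes.

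The count of members higher in HFD was 33 of 34 without the top 1% of cells and 24 of 31 in thinned cells, with 0 lower in both. The share over all genes was not taken in either setting, so these counts have no background beside them. Without cells rich in either phase the sums were 0.18 and 0.54, with 6 members higher and 1 lower of 18, and the cells kept held 28.2% of the mitotic and 59.3% of the S phase members' UMIs in NCD and 15.4% and 31.1% in HFD. There the ratio changed sign for Pclaf (−0.15), Rrm2 (−0.089), Mcm3 (−0.19), Lig1 (−0.15), Mki67 (−0.17), Ccnb2 (−0.14), Cdca8 (−0.0075), Cenpe (−0.19), Aurkb (−1.30), Nusap1 (−1.11), Tpx2 (−0.29), Smc2 (−0.069), Stmn1 (−1.07) and Ccna2 (−0.29). Of these, only Mcm3, Lig1, Mki67, Smc2 and Stmn1 passed the minimum of 5 CPM, and Aurkb had 3 UMIs in HFD against 11 in NCD. Only the intervals of Nusap1 (−1.90 to −0.41) and Stmn1 (−1.45 to −0.71) left out 0.

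For KO against WT the sums were −0.020 and −0.038 at a hashtag share of 97% or more, with 6 members lower, 0.10 and 0.44 without the top 1% of cells, with 10 higher and 0 lower, and the mitotic sum was 0.24 in thinned cells, with 7 higher and 0 lower. At a hashtag share of 80% or without the marker filter 4 members were higher, and at 1.5-fold 0 were higher and 0 lower. Without rich cells 0 were lower, and Ube2c, below the level minimum, was at −0.61 (−1.69 to 0.42, 15 UMIs in KO against 20 in WT). Apart from the setting without rich cells, these counts have no share of all genes beside them, as none was taken.

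In the order WT, KO, NCD and HFD, mitotic-rich shares were 0.405%, 0.945%, 0.655%, 2.13% without the top 1% of cells, 0.534%, 0.631%, 0.731%, 2.00% in thinned cells and 1.89%, 2.65%, 2.33%, 4.52% at 3 or more members. At 6 or more members the mitotic-rich shares were 1.06% of KO and 2.39% of HFD, and at 8 or more, chosen after seeing the data, 0.758%, 0.79%, 2.04% of KO, NCD and HFD. Shares rich in S phase members were 3.7%, 4.26%, 5.2%, 5.6% without the top 1%, 1.19%, 1.51%, 1.05%, 2.66% thinned, 12.5%, 14.9%, 15.2%, 14.8% at 3, 1.63%, 1.72%, 1.68%, 3.21% at 6 and 1.23%, 1.29%, 1.07%, 2.59% at 8 or more members. They were 6.8% of NCD without the marker filter and 7.48% of HFD in cells of 1000 or more genes.

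For Il1rl1-positive against zero cells the mitotic sum, in the same order, was −0.28, −0.70, 0.027, −0.54 in thinned cells and −0.32, −0.26, −0.23, −0.11 in cells of 2000 to 6000 UMIs, so that all 4 were negative at that depth, NCD with the opposite sign and HFD from 0.076 in whole cells. Without the top 1% of cells it was −0.055 in WT, 0.32 in NCD and −0.073 in HFD. From 2 Il1rl1 UMIs it was −0.019 in WT and 0.18 in HFD, without the marker filter 0.92 in NCD, and with other totals 0.015 in HFD. The S phase sum was −0.31 in KO and −0.095 in NCD thinned, −0.22, −0.15 and −0.087 in KO, NCD and HFD cells of 2000 to 6000 UMIs, and −0.35 and −0.039 in KO and NCD without the top 1%. It was −0.10 in WT and 0.31 in NCD without the marker filter, and −0.31 at a hashtag share of 97%, −0.27 with other totals and −0.29 from 2 Il1rl1 UMIs in HFD. The causes of these changes were not tested. Depth limits the rarer members, with Bub1 at 13 UMIs in WT.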
